A study of Mus musculus with 3 samples.

Results

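In MEL cells, a mouse erythroleukemia line that grows as immature red cell precursors, 16118 accessible sites lay between genes and 2.5 to 50 kb from the nearest protein-coding start. DNase-seq finds such sites because DNase I cuts DNA where nucleosomes have been displaced, so called peaks mark promoters, enhancers, insulators and other sites bound by proteins. A site belonged to this set of intergenic peaks when its replicate 2 peak overlapped a replicate 1 peak by at least 1 bp, lay on chromosomes 1 to 19 of mm10 and was centred outside every gene of the GENCODE M21 basic annotation. Its centre also had to be over 2500 bp and up to 50 kb from the nearest start of a protein-coding transcript, and over 500 bp from the 3′ end of any protein-coding gene. The 16118 members made up 19.9% of the 81102 replicate 2 peaks on these chromosomes that replicate 1 overlapped (95% Wilson interval 19.6 to 20.1%), and 18.1% of all 89046 replicate 2 peaks. No peak score entered the choice of members.

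The series holds 3 DNase-seq libraries of 1 cell line in 1 condition, with 2 libraries in biological replicate 1 and 1 library in biological replicate 2. The deposited replicate 1 list was called on both of its libraries together, so each biological replicate is 1 list of 150-bp peaks, with no further list to measure their spread. The labels describe an immortalized line and name no treatment, and the sources used here give no read numbers, so the depth behind each peak is unknown. Intervals below are 95% intervals over peaks and cover counting error only. As a check of the line, 7 of 8 erythroid markers had a promoter peak in replicate 2 and 8 of 8 in replicate 1, against 0 of 3 and 1 of 3 for both the B cell and the T cell markers. All 3 myeloid and both fibroblast markers had a promoter peak in both lists, so presence alone does not set the erythroid markers apart from these. Their replicate 2 scores were 24 to 66, against 46 to 106 for the 7 erythroid ones. The part of the myeloid and fibroblast markers in any result below was not tested. Over all protein-coding genes of chromosomes 1 to 19, 50.5% had a promoter peak in both lists.

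Intergenic accessible sites at this range are where many enhancers and insulators lie. In erythroid cells the main enhancer proteins are GATA1 with its partners TAL1 and LMO2, which read a GATA site beside an E-box, KLF1, which reads a CACC box, and NF-E2, which reads an extended AP-1 site. PU.1 is an ETS protein of myeloid and lymphoid cells, and its gene, Spi1, is named for the proviral insertions that activate it in Friend virus erythroleukemias. CTCF is a zinc-finger protein that binds insulators and the anchors of chromatin loops.

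The sequences that follow show members at loci whose regulation is well known. They are given 5′ to 3′ on the plus strand of GRCm38, the same build as mm10, with GATA motifs (AGATAA or TGATAA, either strand) and AP-1 motifs (TGACTCA or TGAGTCA) in capitals for the beta-globin members, and AP-1 motifs alone for the Hmox1 members. The Hmox1 pair was chosen after its values were seen.
Hbb-y upstream, 5′HS1, chr7:103859196-103859345: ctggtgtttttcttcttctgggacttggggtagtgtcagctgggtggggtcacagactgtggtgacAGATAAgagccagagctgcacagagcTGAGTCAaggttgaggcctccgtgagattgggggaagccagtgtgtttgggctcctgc
Hbb-y upstream, 5′HS2, chr7:103861036-103861185: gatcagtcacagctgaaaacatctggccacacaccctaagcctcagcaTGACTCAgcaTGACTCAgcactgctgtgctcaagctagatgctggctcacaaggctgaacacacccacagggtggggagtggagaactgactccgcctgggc
Hbb-y upstream, beside 5′HS2, chr7:103861636-103861785: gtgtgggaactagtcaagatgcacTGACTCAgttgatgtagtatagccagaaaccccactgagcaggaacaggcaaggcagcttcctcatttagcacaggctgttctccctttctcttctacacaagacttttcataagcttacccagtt
Hbb-bt downstream, HS-3′beta2, chr7:103808996-103809145: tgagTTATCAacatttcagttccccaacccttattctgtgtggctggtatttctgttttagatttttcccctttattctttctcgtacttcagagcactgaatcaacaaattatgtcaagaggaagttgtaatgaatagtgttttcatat
Hmox1 upstream, farther, chr8:75083936-75084085: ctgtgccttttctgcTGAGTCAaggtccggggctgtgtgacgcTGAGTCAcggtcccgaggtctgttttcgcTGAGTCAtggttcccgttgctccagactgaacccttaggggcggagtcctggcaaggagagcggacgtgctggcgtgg
Hmox1 upstream, nearer, chr8:75089656-75089805: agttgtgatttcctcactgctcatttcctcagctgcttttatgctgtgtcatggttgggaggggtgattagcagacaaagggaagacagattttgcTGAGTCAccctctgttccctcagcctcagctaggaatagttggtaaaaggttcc

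The member at 5′HS2, a classical enhancer of the beta-globin locus control region, held 2 AP-1 motifs in tandem, both within the longer NF-E2 motif, and no GATA motif in these 150 bp. The member at 5′HS1 held 1 GATA and 1 AP-1 motif. The farther Hmox1 member held 3 AP-1 motifs, 1 of them within the NF-E2 motif. Hmox1 encodes heme oxygenase, which breaks down heme, and its upstream enhancers are known targets of the BACH1 and NRF2 proteins.

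For each of 5 motifs, the member with the highest replicate 2 score that held it is shown next, with that motif in capitals. Chromosome windows with unusually high scores were left out of this choice.
GATA, near Clint1, chr11:45805436-45805585: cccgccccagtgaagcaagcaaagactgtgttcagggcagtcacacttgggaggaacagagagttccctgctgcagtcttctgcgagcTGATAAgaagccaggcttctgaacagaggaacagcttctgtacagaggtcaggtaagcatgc
NF-E2, near Ssc4d, chr5:135957676-135957825: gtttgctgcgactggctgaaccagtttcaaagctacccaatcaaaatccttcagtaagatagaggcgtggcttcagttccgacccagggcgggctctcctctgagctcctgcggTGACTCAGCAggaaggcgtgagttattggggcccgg
KLF, near Ccr1, chr9:123929036-123929185: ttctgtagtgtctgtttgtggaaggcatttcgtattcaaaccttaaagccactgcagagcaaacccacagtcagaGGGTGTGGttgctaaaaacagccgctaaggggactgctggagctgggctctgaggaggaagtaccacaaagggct
PU.1, near Tmem121, chr12:113215056-113215205: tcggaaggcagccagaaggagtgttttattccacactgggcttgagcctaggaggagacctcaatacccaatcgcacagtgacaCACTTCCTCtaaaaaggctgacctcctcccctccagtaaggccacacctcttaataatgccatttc
CTCF, near Rtn4rl2, chr2:84868636-84868785: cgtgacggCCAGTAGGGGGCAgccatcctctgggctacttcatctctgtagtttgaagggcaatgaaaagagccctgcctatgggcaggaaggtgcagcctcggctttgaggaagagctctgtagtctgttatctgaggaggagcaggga

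The Ccr1 member also held the RUNX motif across the KLF motif and the PU.1 word GAGGAAGT, so the same 150 bp was the highest-scoring member for both KLF and RUNX.

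The authors' peak score, a whole number from 1 to 150 whose meaning is not given in the sources used here, was spread differently in the 2 lists. In replicate 2 the members' scores ran from 1 to 147 with a median of 32, and the middle 50% lay between 21 and 48. In replicate 1, where a member takes the highest score of the peaks that overlap it, scores ran from 10 to 150 with a median of 119. All 16118 members had the higher score in replicate 1, so scores are set side by side only within a list. The order of members was much the same in both lists (Spearman's rho 0.91 across 16118 members, which share cell line and sequence and are not independent samples).

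Members scored above far intergenic peaks and below promoter peaks in both lists. Shared peaks more than 50 kb from any start (9430 peaks) had median scores of 24 in replicate 2 and 107 in replicate 1. Peaks inside genes and more than 2500 bp from starts (33390 peaks) came close to the members, with medians of 29 and 116. Peaks within 1000 bp of a start (16569 peaks) had medians of 48 and 135. The ranges of all 4 classes overlapped widely, as the distribution of scores by location shows.

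**Figure D1:**
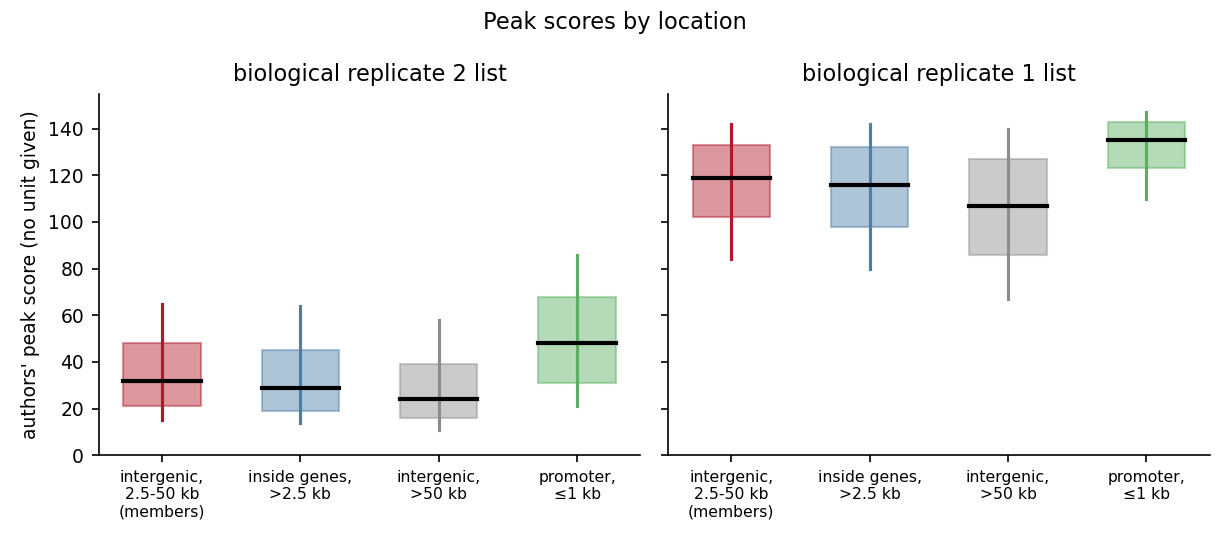
Authors' peak scores of members, peaks inside genes, far intergenic peaks and promoter peaks in the replicate 2 list (left) and the replicate 1 list (right). Black lines are medians, boxes the middle 50% and vertical lines the range from the 10th to the 90th percentile; the members' medians of 32 and 119 lie above those of far intergenic peaks and below those of promoter peaks.

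Members were densest just outside the promoter, and their density differed between upstream and downstream sequence. Over the 375 Mb of sequence that meets the location rule, there were 43.0 members per Mb (exact Poisson interval 42.4 to 43.7). Peaks inside genes had 31.0 per Mb of eligible sequence, far intergenic peaks 11.5 and promoter peaks 325. By distance, members per Mb numbered 54.7 at 2.5 to 5 kb, 45.8 at 5 to 10 kb, 43.8 at 10 to 20 kb, 42.0 at 20 to 35 kb and 35.4 at 35 to 50 kb. The highest density was 1.54 times the lowest (interval 1.45 to 1.64).

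Close to the start, the upstream side was the denser one. At 2.5 to 5 kb there were 57.6 members per Mb upstream (54.9 to 60.4) and 36.7 per Mb downstream beyond the gene (31.4 to 42.5). At 5 to 10 kb the upstream side still had more, at 48.6 per Mb against 36.2 per Mb downstream. From 10 to 20 kb the order turned round, with 42.6 per Mb upstream (41.1 to 44.1) and 46.8 downstream (44.3 to 49.4), and it stayed so out to 50 kb. Over all distances 71.9% of members were upstream of their nearest start (71.2 to 72.6%), against 71.3% of eligible sequence. Eligible downstream sequence at 2.5 to 5 kb came to 4.80 Mb, against 29.97 Mb upstream, which makes the downstream value the least precise. Downstream sequence is eligible only where the gene ends within that distance of the start. Near starts the sides therefore belong to different sets of genes, and a difference between sides at the same genes was not tested.

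**Figure D2:**
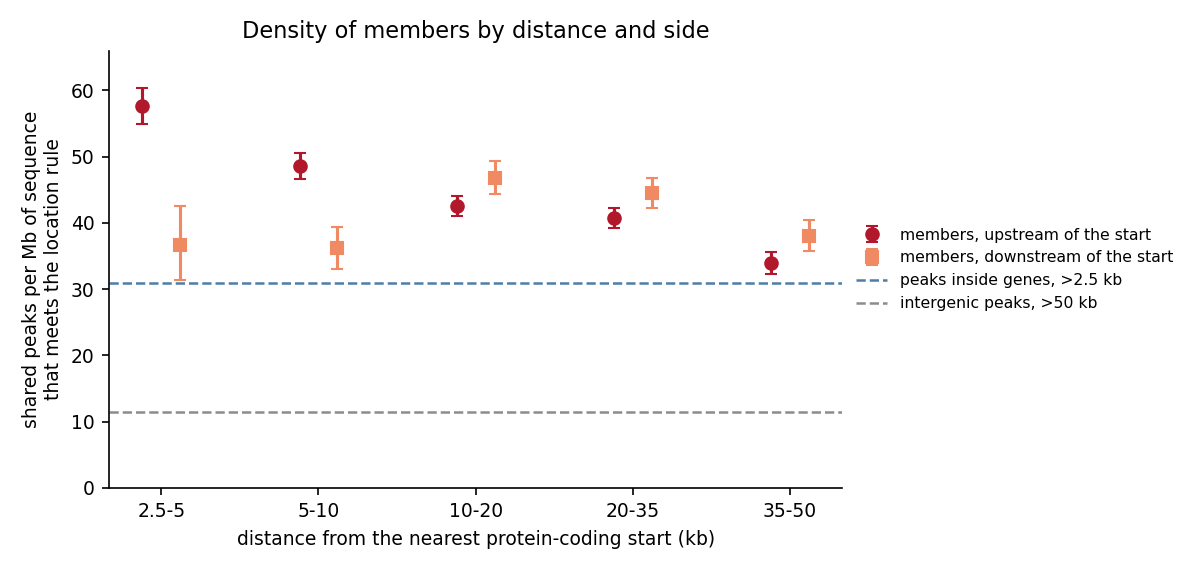
Members per Mb of eligible sequence (y axis) in 5 bins of distance from the nearest protein-coding start (x axis, kb), upstream (circles) and downstream (squares), with exact Poisson 95% intervals. Dashed lines give peaks inside genes (31.0 per Mb) and far intergenic peaks (11.5 per Mb); the upstream side is the denser one up to 10 kb and the downstream side beyond it.

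Chromosomes differed in member density more than counting error allows. Chromosome 11 had 63.1 members per Mb of eligible sequence (59.8 to 66.6), chromosome 15 had 57.6 and chromosome 19 had 55.5. Chromosomes 14 and 7 were lowest, with 32.6 and 32.7 per Mb (30.7 to 34.8 for chromosome 7). Whether copy number of the line moves with these densities was not tested.

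At the edges of the rule, peaks just inside and just outside had close scores. The 401 members at 2500 to 3000 bp from a start had median scores of 35 in replicate 2 and 123 in replicate 1, and the 390 peaks at 2000 to 2500 bp had 36 and 123. At the upper limit, the 131 members at 49 to 50 kb had 27 and 114, and the 137 peaks at 50 to 51 kb had 31 and 116.

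The 150-bp sequences of members were richer in G and C than their surroundings and poorer in repeats. Mean GC content was 49.3% in members (SD 6.26, n = 16118), against 44.9% in their flanks, which are 27030 windows of 150 bp placed 1000 bp to either side that touch no peak of either list. Promoter peaks had 59.2%. Repeats masked by NCBI covered over 50% of the window in 12.6% of members (12.1 to 13.2%), against 28.8% of flanks and 1.85% of promoter peaks.

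Motifs of the erythroid enhancer proteins were more frequent in members than in their flanks. The GATA motif was found in 25.3% of members and 13.6% of flanks, a ratio of 1.86 (1.78 to 1.93). The composite E-box-GATA motif, CTG followed by a GATA motif 6 to 9 bases on, was found in 4.39% of members and 1.17% of flanks, a ratio of 3.75 (3.29 to 4.28). The NF-E2 motif stood at 1.16% and 0.148%, a ratio of 7.84 (5.58 to 11.02), and the shorter AP-1 motif that it contains at 8.38% and 2.35%. The KLF motif, CCNCNCCC, was found in 20.5% of members and 12.5% of flanks. RUNX motifs, TGTGGTC or TGTGGTT, were found in 1777 members and in 6.19% of flanks, a ratio of 1.78 (1.67 to 1.90). Each motif was searched on both strands. Flanks that touch a peak of either list were left out, so accessible matches could not count in them. This can raise every ratio to flanks given here and below, by an amount that was not measured.

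Motifs read by proteins of other tissues were not more frequent in members beyond counting error. The HNF4 motif of liver and gut, CAAAGTCCA, was found in 0.230% of members and 0.255% of flanks (ratio 0.90, 0.60 to 1.34). The TEAD motif of muscle and epithelium, GGAATGC or GGAATGT, was found in 2.41% of members and 3.32% of flanks (ratio 0.73, 0.65 to 0.82). The MEF2 motif, also searched, lay on the other side, at 0.261% of members and 0.185% of flanks. Its ratio was 1.41, with an interval that includes 1 (0.94 to 2.12).

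Against other accessible sites, members resembled peaks inside genes and differed from promoters. Their GATA share of 25.3% was below the 29.6% of peaks inside genes (ratio 0.85, 0.83 to 0.88). It was also below the 31.7% of far intergenic peaks (ratio 0.80, 0.77 to 0.83) and above the 9.23% of promoter peaks (ratio 2.74, 2.60 to 2.90). Their KLF share of 20.5% was less than that of promoter peaks, which was 43.8% (ratio 0.47, 0.45 to 0.48), and their ETS share (CCGGAAA or CCGGAAG) of 2.53% was less than the 13.9% of promoter peaks (ratio 0.18, 0.16 to 0.20).

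**Figure D3:**
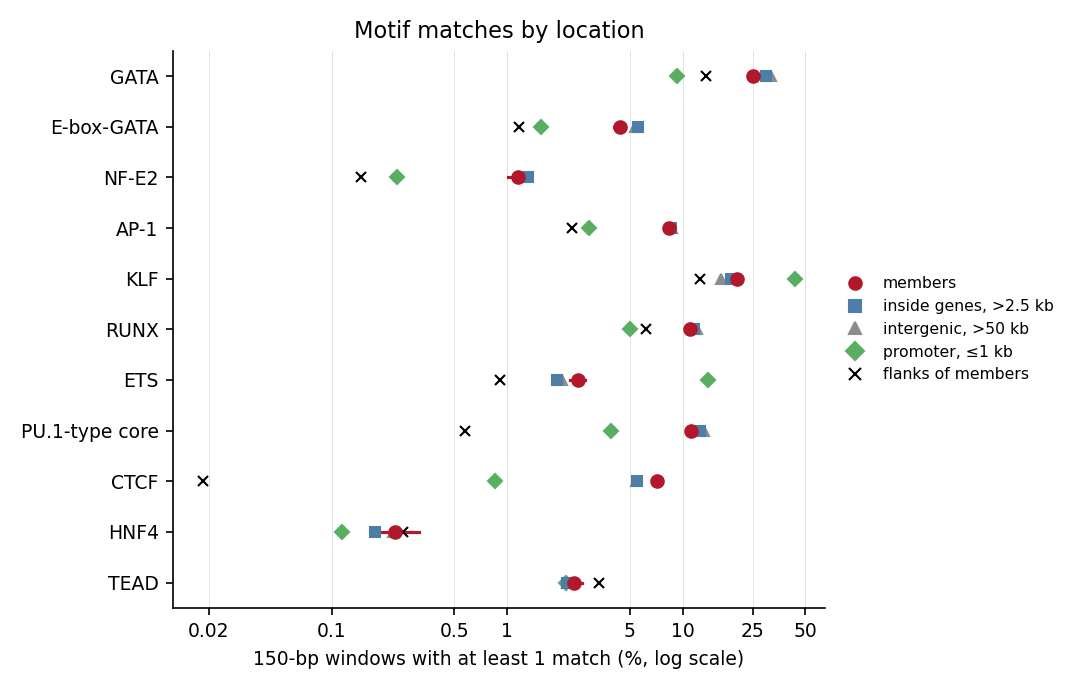
Share of 150-bp windows with at least 1 match to each motif (x axis, percent, log scale) in members, peaks inside genes, far intergenic peaks, promoter peaks and the members' flanks; red lines are 95% Wilson intervals of members. The 3 non-promoter classes lie close together and above the flanks for all motifs shown except HNF4 and TEAD, and CTCF has the widest gap to the flanks.

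The CTCF motif set members apart from their flanks most widely. It was found in 1153 members, 7.15% (6.77 to 7.56%), against 5 of 27030 flanks, a ratio of 387 (161 to 931). Because the flanks were chosen to touch no peak, this is not a ratio to unselected sequence. The gap to other accessible sites was far smaller. Members held it more often than peaks inside genes, at 5.47% (ratio 1.31, 1.22 to 1.41), far intergenic peaks, at 5.40% (ratio 1.33, 1.198 to 1.47), and promoter peaks, at 0.857% (ratio 8.35, 7.02 to 9.92). Of the 1158 CTCF matches, 70.2% had their middle within 25 bp of the peak centre, against 40.5% of 4741 GATA matches and 38.6% of 5424 KLF matches.

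CTCF members scored lower than the others and stood alone more often. They had median scores of 29 in replicate 2 and 110 in replicate 1, against 32 and 120 in members without the motif. The GATA motif was found in 109 of the 1153 and the KLF motif in 117, and GATA members held CTCF less often than the others did, at 2.67% against 8.67% (ratio 0.31, 0.25 to 0.37). Members alone within 10 kb held CTCF in 9.89% of cases, against 3.69% in runs of 8 or more members (ratio 2.68, 1.91 to 3.77). Members downstream of their nearest start held it in 8.91%, against 6.47% upstream (ratio 1.38, 1.23 to 1.55).

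A PU.1-type core was the other sequence that set members apart from flanks. Among 7368 words of 8 bases found in at least 100 members, GAGGAAGT ranked behind only a pair of rarer GC-rich words by its ratio to flanks. It was found in 11.1% of members and 0.577% of flanks, a ratio of 19.2 (16.4 to 22.6); it was picked after the words were ranked. The full PU.1 motif, GAGGAAGTG, was found in 4.70% of members and 0.229% of flanks (ratio 20.5, 15.8 to 26.5). Peaks inside genes held GAGGAAGT more often, at 12.5% (ratio 0.89, 0.84 to 0.94), as did far intergenic peaks, at 13.3% (ratio 0.83, 0.78 to 0.89). Promoter peaks held it less often, at 3.93% (ratio 2.83, 2.59 to 3.08).

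Members with it scored about as high as those without, at medians of 33 against 32 in replicate 2 and 120 against 119 in replicate 1. GATA members held it less often than other members, at 9.44% against 11.7% (ratio 0.81, 0.73 to 0.90), and KLF members more often, at 13.6% against 10.5% (ratio 1.29, 1.17 to 1.43). It was more frequent in members that were over 50% masked repeat, at 18.03% of 2036, than in the rest, at 10.1% of 14082. The CTCF motif ran the other way, at 1.77% against 7.93%.

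Higher-scoring members held GATA and KLF motifs more often and CTCF motifs less often. With members cut into 10 equal groups by replicate 2 score, the GATA share was 21.1% in the lowest and 33.6% in the highest group, and the highest was 1.59 times the lowest (1.42 to 1.79). The KLF share was 17.1% in the lowest and 27.6% in the highest group, and was not recomputed at equal GC content. The CTCF share was 6.51% in the lowest group, peaked at 9.06% in group 4 and was 1.61% in the highest. The ETS share was 0.93% in the lowest and 5.02% in the highest group. The PU.1-type core kept between 8.75 and 13.8% with no steady order. Scores served here only to sort members, and they are the authors' own. Members with no GATA motif had a median replicate 2 score of 31, those with 1 had 35, those with 2 had 37 and the 49 with 3 or more had 36. In 36.8% of members none of 9 sites (GATA, E-box-GATA, NF-E2, AP-1, KLF, RUNX, ETS, the PU.1-type core and CTCF) was found, and these had median scores of 30 in replicate 2 and 117 in replicate 1.

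**Figure D4:**
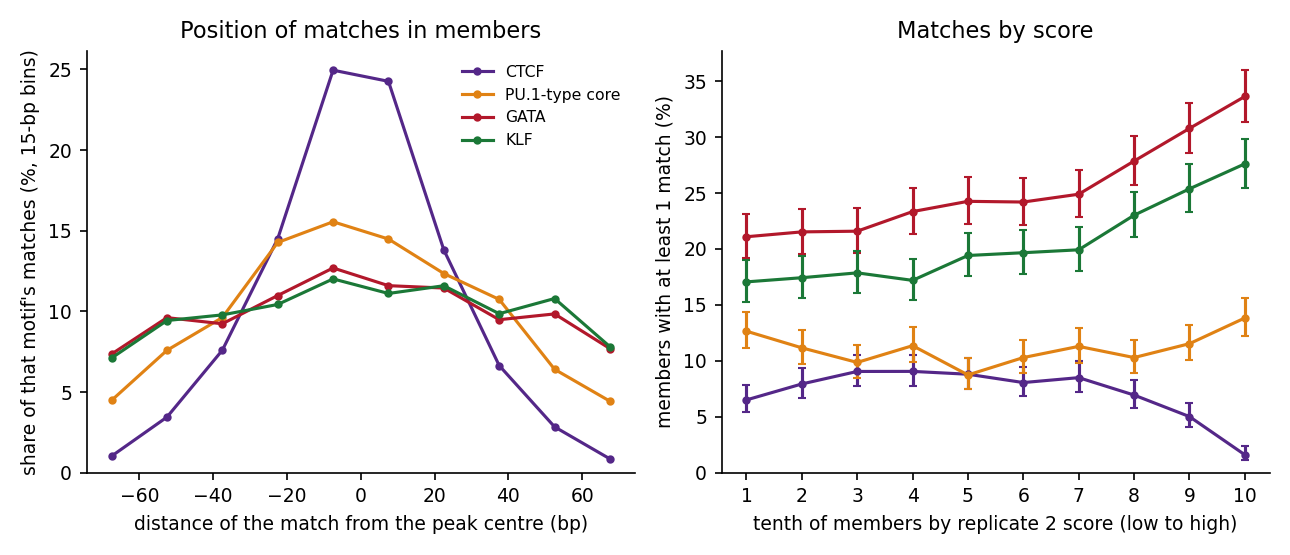
Left, share of each motif's matches in members (y axis, percent, 15-bp bins) by distance from the peak centre (x axis, bp); CTCF matches gather at the centre. Right, share of members with at least 1 match (y axis, percent, with 95% Wilson intervals) in 10 equal groups of replicate 2 score from low to high (x axis); GATA reaches 33.6% and CTCF 1.61% in the highest group.

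Members gathered next to genes with an accessible promoter. The nearest protein-coding gene had a promoter peak in both lists for 9510 members, 59.0% (58.2 to 59.8%), against 50.5% of all 20720 protein-coding genes and 38.5% of eligible sequence. The share was 63.5% for peaks inside genes (63.0 to 64.0%) and 55.4% for far intergenic peaks (54.4 to 56.4%). Members thus lay between those classes, and the trait is not particular to them. Per Mb of eligible sequence there were 65.9 members next to such genes and 28.7 next to other genes, a ratio of 2.30 (2.23 to 2.37). They also scored higher, with a median of 35 in replicate 2, against 27 next to other genes. Their GATA shares differed by less than counting error, at 25.2% and 25.5% (ratio 0.99, 0.94 to 1.05). The nearest gene is a label of position, and which gene a member acts on was not measured.

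Of the 20720 protein-coding genes, 6857 had at least 1 member nearest to them, a share of 33.1%. Of these, 3029 had 1 member, 3065 had 2 to 4, 693 had 5 to 9 and 70 had 10 or more. Genes differ in how much eligible sequence lies next to them, and 4697 have none.

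Among erythroid transcription factors, 12 of 24 genes had a member, 35 in all, with replicate 2 scores from 14 to 87 and a median of 39. The highest lay 15954 bp downstream of the start of Gfi1b, a repressor needed for red cell and platelet formation, with scores of 87 in replicate 2 and 146 in replicate 1. Nfe2, which encodes the larger subunit of NF-E2, had a member 3092 bp upstream with scores of 83 and 150, holding an E-box-GATA motif and 2 KLF motifs. Tal1 had a pair of members 7995 and 8455 bp upstream, with replicate 2 scores of 48 and 47. Lmo2, the bridge between GATA1 and TAL1, had 5 upstream members with replicate 2 scores of 16 to 69, the highest 12884 bp away. Myb, which keeps progenitors dividing, had 4, and the highest, 35827 bp upstream with scores of 66 and 144, held 2 GATA motifs, 1 of them in an E-box-GATA motif. Klf13 had 6 members and Klf3 and Nfe2l2 had 4 each, Bach1 had 3 and E2f2 had 2, and their highest replicate 2 scores were 80 near Klf13, 43 near Klf3, 30 near Nfe2l2, 59 near Bach1 and 43 near E2f2. Gata2 had 1 member, 11920 bp upstream with scores of 26 and 86, and Ldb1 had 1, with 44 and 114. Of the 35, 10 held a GATA motif and 0 a CTCF motif, and the shares over all members were 25.3% and 7.15%.

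Among genes of heme and iron, 13 of 22 had a member, 25 in all, with a median replicate 2 score of 36. Hmox1 had 5, between 3890 and 21850 bp upstream. The pair printed above scored highest, at 76 in replicate 2 and 141 in replicate 1 for the farther one and 51 and 136 for the nearer one. Fth1, the heavy chain of ferritin, had 5 upstream members with replicate 2 scores of 22 to 37. Ireb2, which senses iron, had 3, at 16 to 24. Glrx5 had 2, the higher with 63 and 148, and Tfrc, the transferrin receptor, had 2, the higher with 40 and 132. The remaining 8 genes had 1 each: Steap3 with 53 and 126, Slc25a39 with 45 and 120, Slc25a38 with 43 and 131, Slc25a37, the mitochondrial iron importer, with 42 and 130, Aco1 with 38 and 134, Cpox with 36 and 127, Alas1 with 34 and 127, and Trf with 10 and 84.

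Counts per list can be set beside the 33.1% of all genes with a member. Stem and progenitor genes had a member in 14 of 16 cases, myeloid genes in 11 of 16 and heme and iron genes in 13 of 22, and the lower bounds of these shares, 64.0%, 44.4% and 38.7%, lie above 33.1%. For erythroid factors (31.4 to 68.6%), the intervals include it, as they do for red cell membrane genes (9 of 20), megakaryocyte genes (8 of 14), lymphoid genes (6 of 16), housekeeping genes (9 of 18), muscle genes (8 of 16) and globins (4 of 10). Neuronal genes had a member in 1 of 14 cases (1.27 to 31.5%), below 33.1%, and hepatocyte genes in 2 of 16 (3.50 to 36.0%), which includes it.

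Density gave another order of the lists. Per Mb of eligible sequence, members numbered 159 next to housekeeping genes, 141 next to globins, 90.6 next to myeloid genes, 79.3 next to erythroid factors, 72.4 next to heme and iron genes and 71.2 next to red cell membrane genes. Megakaryocyte genes had 72.8, stem and progenitor genes 71.0, muscle genes 62.3, lymphoid genes 45.4, hepatocyte genes 12.9 and neuronal genes 3.00, against 43.0 over all eligible sequence. The myeloid members had a median replicate 2 score of 54, but 10 of these 32 lay near Fcgr1 in a high-scoring stretch of chromosome 3. Those 10 also count in the myeloid density, which was not computed without them, so its rank above erythroid factors may rest on that stretch. The list densities carry no intervals. The 22 myeloid members outside such stretches had a median of 32 in replicate 2, against 39 for erythroid factors. In replicate 1 the order was the other way, at 121.5 against 120.

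In the red cell membrane list Aqp1, a water channel, had a member 12361 bp upstream with scores of 81 in replicate 2 and 147 in replicate 1, and Epb41, which ties spectrin to the membrane, one 3279 bp upstream with 74 and 144, inside a fragment that RefSeq records as a blood vessel enhancer. Car2, the carbonic anhydrase of red cells, had 7 members, the highest 7337 bp upstream with 72 and 141 and 2 GATA motifs. Zfp36l2 led the stem and progenitor list with 96 and 148, followed by Myc with 72 and 138, Fli1 with 71 and 144 and Egr1, with 11 members, at 68 and 145. In the myeloid list Fcgr1 had a member with 121 and 150, Cebpe one with 106 and 148, Itgam one with 100 and 148 and Mpo one with 65 and 136. Pf4 led the megakaryocyte list with 76 and 149, before Treml1 with 52 and 135 and Gp5 with 51 and 130.

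Median replicate 2 scores were 26 for lymphoid, 22 for hepatocyte and 30 for muscle members, against 32 for all members, and 48 for housekeeping members. Tcf7 led the lymphoid list with 67 and 142, and Il7r, Ebf1 and Cd3e reached 40, 39 and 36 in replicate 2. In the housekeeping list Actb reached 93, Eef1a1 90 and Ywhaz 75 in replicate 2. In the muscle list Myod1 reached 64, Actn2 63, Myog 46 and Mb 37. The neuronal member, next to Grin1, scored 45 and 131, and the hepatocyte members belonged to Cyp7a1, the highest with 46 and 126, and Tat, the highest with 22 and 87.

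The beta-globin locus held 10 members among 14 replicate 2 peaks, and all 14 were shared. The globin list had a member next to 4 of its 10 genes, Hbb-bt, Hbb-y, Hba-a2 and Hbq1a. Upstream of Hbb-y, the embryonic beta-like gene nearest the locus control region, 4 members lay within 2670 bp. RefSeq places 5′HS1 over the member 6055 bp upstream, with scores of 74 in replicate 2 and 141 in replicate 1, and 5′HS2 over the member 7895 bp upstream, with 88 and 140. A pair of members 8495 and 8575 bp upstream overlapped each other and had their centres inside RefSeq fragments of HS2, with 65 and 36 in replicate 2 and 146 for both in replicate 1. A member on 5′HS4 had 69 and 146, and its nearest coding start was that of the olfactory receptor gene Olfr66, so it is outside the globin list and was named after its values were seen.

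On the other side of the locus, 3 members lay downstream of Hbb-bt, the adult beta-globin gene nearest that end. RefSeq places HS-3′beta2, a site found in mouse spleen, over both the member 4925 bp from the start, with 72 and 144, and that 4365 bp from it, with 32 and 126. The farthest of the 3, 6905 bp away, had 30 and 102. The promoter peak of Hbb-bt itself had 40 and 128, below 5 of the 10 members around it in replicate 2 and level with 1. The alpha-globin side gave Hba-a2 1 member, 2798 bp upstream with 30 in replicate 2 and a GATA motif, and Hbq1a 2, with 31 and 39 in replicate 2. Alpha-like and beta-like genes have near-identical copies, and how the authors placed reads that map to several copies is not given in the sources used here.

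**Figure D5:**
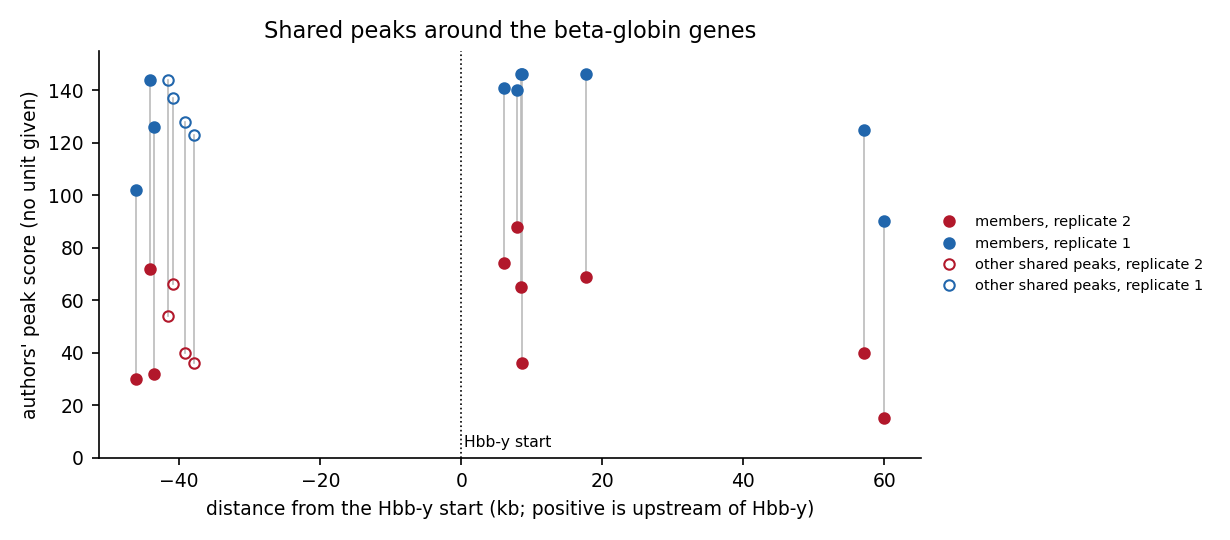
Authors' peak scores (y axis) of all 14 shared peaks around the beta-globin genes by distance from the Hbb-y start (x axis, kb, positive upstream of Hbb-y), in replicate 2 (red) and replicate 1 (blue), joined by grey lines. Filled points are the 10 members and open points other shared peaks; the cluster just upstream of Hbb-y reaches 88 in replicate 2.

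Across the genome, RefSeq records 1006 enhancers on these chromosomes, and 57 of them held the centres of 67 members. That is 0.416% of members (0.327 to 0.528%), close to the 0.353% of peaks inside genes (0.295 to 0.423%). Of the 57, 39 come from the VISTA browser, which tests enhancers in mouse embryos. The tissues recorded for these were most often heart and brain, with dorsal root ganglion, limb and neural tube among the others. Of 116 listed DNase I hypersensitive sites, 7 held 8 members, and of 5 locus control regions 2 held 5 members. Apart from a site at Mpo, all of these lie at the beta-globin locus described above, so they are not spread across the genome. The listed hypersensitive sites also held 10 peaks inside genes, 5 promoter peaks, 6 at remaining positions and 0 far intergenic peaks. The elements named here are the blood cell ones, chosen after their values were seen, and are not typical of the 57. A Btg2 fragment that RefSeq records as an erythroid enhancer when integrated in MEL cells overlapped a member 5809 bp downstream of that start, with scores of 93 in replicate 2 and 149 in replicate 1. A second Btg2 fragment, active in K562 cells, overlapped a member with 63 and 144. A Gata2 fragment overlapped a member with 28 and 127 whose nearest start is that of Rpn1, 32449 bp away, so nearest start and recorded target differ there. An enhancer of Mpo, the myeloperoxidase gene of granulocytes, overlapped a member 3290 bp upstream with 65 and 136.

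The highest-scoring member was 4911 bp upstream of Pdzd8, with 147 in replicate 2 and 150 in replicate 1, and held none of the 9 sites. Next came members near Ccr1 with 137 and 150 and near Jak2 with 131 and 150. After them stood members near A530016L24Rik with 126, Jak2 with 124, Cdca4 with 123, Ccr1 and Tmem121 with 122 each, and Fcgr1 and Mef2d with 121 each in replicate 2. Of these 10, 5 lay in 3 windows of chromosomes 3, 12 and 19. These windows were picked for high scores in these same data, so high medians there follow from the choice. Those windows held 159, 37 and 37 members with median replicate 2 scores of 53, 57 and 55, against 32 for the other 15885 members, and their copy number was not tested.

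Most members had close neighbours. Another member lay within 10 kb of 69.8% of members (69.1 to 70.5%), and scores went up with the size of a run. The share depends on how dense the peaks are, and was 91.4% in the longer replicate 1 list alone. A share expected from density alone was not computed, so clustering beyond it was not tested. Members alone had median scores of 26 in replicate 2 and 110 in replicate 1, those in runs of 2 or 3 had 31 and 119, those in runs of 4 to 7 had 38 and 126, and the 921 in 90 runs of 8 or more had 42 and 132. The longest run held 26 members over 34.3 kb downstream of Ccr1, a chemokine receptor gene, with replicate 2 scores of 21 to 137, 6 members with a GATA motif and none with CTCF. The next held 24 members near BC107364 and Hfe2, all in the high-scoring window of chromosome 3, and none had a GATA motif. For comparison, 25.3% of all members held GATA and 7.15% CTCF, and in runs of 8 or more these shares were 22.0% and 3.69%. Motif counts of single runs are small and were not tested against these shares. Runs of 23 near Olfr1423 and Osbp, 19 near Tex44 and 17 near Ptma and Tex44 followed, with median replicate 2 scores of 38, 28 and 50.

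Counted per gene, Ccr1 had 26 members, BC107364, Tex44 and Olfr1423 had 22 each, Tmem121, Slc38a2 and Ptma had 16 each, and Jak2, Hfe2 and Abt1 had 15 each. Other genes with 15 were left outside the first 10 by the order of ties. Olfr1423 is an olfactory receptor gene, and neither it nor Tex44 had a promoter peak in both lists. Jak2, the kinase of the erythropoietin receptor, did, and all 15 of its members lay in the high-scoring window of chromosome 19, with replicate 2 scores of 27 to 131. Overlapping members count singly here: 445 of the 16118 overlapped the one before, leaving 15673 separate stretches that cover 2380 kb.

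The lists differed in how many sites they held at these locations. Of 16794 replicate 2 peaks that meet the location rule, 16118 were found in replicate 1, 96.0% (95.7 to 96.3%). Of 54973 replicate 1 peaks there, 16363 were found in replicate 2, 29.8% (29.4 to 30.1%). Those found in both had a median replicate 1 score of 118, against 60 for those found in replicate 1 alone. Shared replicate 1 peaks held CTCF in 6.61% of cases, against 1.48% in replicate 1 alone (ratio 4.48, 4.05 to 4.95), GATA in 24.4% against 19.1% (ratio 1.28, 1.24 to 1.32) and the PU.1-type core in 10.7% against 7.54% (ratio 1.42, 1.34 to 1.497). The motif shares of members therefore do not describe the longer replicate 1 list.

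Hotspots, the broader accessible regions that the authors called separately, were narrower at members than at promoters. The centre of 15843 members lay in a replicate 2 hotspot, with a median width of 254 bp, against 446 bp at promoter peaks. In replicate 1 the medians were 748 bp and 2163 bp. Of the 15929 members centred in a replicate 1 hotspot, 36.3% lay in one at least 1000 bp wide (35.6 to 37.1%), against 89.4% of 16487 promoter peaks (89.0 to 89.9%).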

How the data were processed

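DNase-seq of MEL cells had been processed by the authors to peaks of 150 bp and to hotspots on mm10, per the deposited notes, with replicate 1 called on its merged libraries. Per the deposited files, the peak score is a whole number up to 150, and its scale, the aligner and the peak caller are not given in the sources used here. The authors' hotspot files carry −log10 q-values, which were not used; only hotspot positions and widths were. No read counts were used, so sequencing depth per sample is unknown.

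Members were found from the authors' peaks and the GENCODE M21 basic annotation. Motifs were searched on both strands of 150-bp windows in RefSeq's GRCm38.p6, the same build. Shares carry 95% Wilson intervals, ratios log-normal intervals and densities exact Poisson intervals over eligible sequence sampled every 100 bp. All cover counting error over peaks, not spread between cultures, and neighbouring peaks are not independent. With 1 list per biological replicate and 1 condition, no p-value was computed. Functions were tested on simulated data (Python 3.11.15, numpy 2.4.6, pandas 2.3.3, scipy 1.17.1, matplotlib 3.10.9).

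The 12 gene lists held 206 genes, of which 202 were found. Named genes are list genes with members (all for erythroid factors, heme and iron and globins, otherwise up to 4 with the highest score), the 10 highest-scoring members and the genes with the most members. Some items that the rule names are not reported here. Members and lists were chosen with earlier results of these data known. Alternatives covered the peak list, overlap, score, location limits, window, flanks and GC content.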

Additional observations from a re-analysis of the deposited data

How the results depend on the processing

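Of 57 alternatives, 26 left a result within its own error (for the gene count, within a set factor) and 31 moved it further. Every density ratio and every motif ratio to flanks among them stayed above 1. The rest are plain shares, counts and medians, which have no direction to turn. The shares of eligible sequence set beside them were not recomputed. With replicate 1 peaks alone, the member share was 20.4%, the density ratio of nearest to farthest bin 1.72, the GATA ratio to flanks 1.48, the CTCF ratio 121, the share next to an accessible promoter 58.2%, the share within 10 kb of another member 91.4% and the genes with a member 10678. With the higher-scoring 50% of peaks these were 19.1%, 2.05, 2.17 for GATA, 66.6% next to an accessible promoter and 3830 genes, with 73.1% upstream and an NF-E2 ratio of 12.5. Of location limits, the member share was 22.6% outside protein-coding genes only, 17.5% beyond 5000 bp and 18.8% beyond 2000 bp from 3′ ends, where 74.4% lay upstream. With 75-bp windows the GATA ratio was 2.10 and the NF-E2 ratio 12.1. At 40 to 50% GC they were 2.36 and 5.41. The promoter share was 55.9% for promoters of 500 bp and 65.3% for 2500 bp. The share near another member was 71.2% in replicate 2 alone, 58.1% for gaps of 5 kb and 79.1% for 20 kb. Any start within 50 kb gave 11691 genes. The PU.1-type core, whose alternatives were chosen after seeing the data, had ratios of 12.2 in replicate 1 alone, 25.4 in 75 bp and 15.2 against flanks 2000 bp away. The cause of these shifts was not tested. Outside these 57, 2 ratios of sites found together turned at 40 to 50% GC: GATA with KLF was 1.17 (1.05 to 1.32), against 0.87 (0.81 to 0.93) in all members, and GATA with ETS was 1.44 (1.03 to 2.01), against 0.86 (0.68 to 1.08). Another 3 pairs also changed side of 1, with intervals at that GC that include 1. Each replicate alone was among the alternatives, but the libraries of replicate 1 could not be left out singly, because its list merges both. No paired analysis was possible because the series holds 1 condition. Depth is unknown, and its part in the length of either list was not tested.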
